A study of Homo sapiens with 15 samples.

Results

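The HOXD cluster is the set of 9 HOXD genes on the long arm of chromosome 2. In the order of their deposited starts they are HOXD13, HOXD12, HOXD11, HOXD10, HOXD9, HOXD8, HOXD3, HOXD4 and HOXD1. HOXD4 lies within the deposited span of HOXD3. Its RefSeq start, at 176151550, comes before that of HOXD3, at 176157307. The members were taken by name, and all 9 were found among the 58302 genes of the deposited tables. Expression was read from RNA-seq of C4-2B cells in 3 replicates, and these libraries held from 44992971 to 49569026 counts in genes. C4-2B is an established human prostate adenocarcinoma line of the LNCaP series. Its samples carry the genotype label wild type, they were grown in RPMI with foetal bovine serum, and no treatment is listed for them. The labels name 15 samples in 5 groups, and the DKD and ER groups, with a scrambled control or Pax5 siRNA, were not analysed here. No comparison between cell lines or between siRNA treatments was therefore made, and every value below describes C4-2B cells alone.

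HOX genes encode homeodomain transcription factors that give cells their position along the body axis. They lie in clusters named HOXA to HOXD, and genes of the same number in different clusters are paralogues, copies that descend from a common ancestral gene. Within a cluster the low numbers act toward the head and the high numbers toward the tail. The 5′ end of the HOXD cluster, with HOXD13, patterns digits and the urogenital tract, and Hoxd13 in mice takes part in the growth of the prostate and its neighbouring glands. Polycomb complexes keep the clusters off where they are not needed, and enhancers in the flanking regions on either side switch parts of the cluster on.

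HOXD13 was the only member with a level of at least 1 TPM (the counts per base of gene, scaled to the same total in each library) in every library, and 4 of the 9 genes had no count at all. To set this beside the sequence, the bases before the annotated start of 3 members are printed from the RefSeq promoter table (GRCh38.p14, plus strand), cut where either RefSeq or the deposited annotation begins its first exon. HOXD13 is shown as the member with the highest level (chr2:176092471-176092720), HOXD12 as its nearest neighbour, at 0 counts (chr2:176099545-176099729), and HOXD1 as the member at the other end of the cluster (chr2:176188418-176188578). Capitals mark each CG dinucleotide and, in HOXD13, the letters TATAAA with the match on the other strand that overlaps them.
HOXD13: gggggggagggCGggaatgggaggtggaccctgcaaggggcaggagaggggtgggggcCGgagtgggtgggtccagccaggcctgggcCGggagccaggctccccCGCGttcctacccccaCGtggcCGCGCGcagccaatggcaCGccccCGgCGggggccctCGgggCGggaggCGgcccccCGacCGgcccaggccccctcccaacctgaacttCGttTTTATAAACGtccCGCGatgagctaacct
HOXD12: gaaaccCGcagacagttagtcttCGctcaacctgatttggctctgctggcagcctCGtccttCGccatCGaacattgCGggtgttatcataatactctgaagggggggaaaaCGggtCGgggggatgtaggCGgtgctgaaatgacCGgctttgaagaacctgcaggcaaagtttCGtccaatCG
HOXD1: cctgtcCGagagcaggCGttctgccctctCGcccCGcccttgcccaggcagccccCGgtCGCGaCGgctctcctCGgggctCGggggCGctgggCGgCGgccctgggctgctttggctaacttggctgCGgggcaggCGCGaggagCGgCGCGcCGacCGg

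The stretches printed for HOXD13, HOXD12 and HOXD1 hold 21, 12 and 21 CG dinucleotides in 250, 185 and 161 bases. In the full 250 bases before the RefSeq start, the 8 members that matched the table had from 4 (HOXD4) to 31 (HOXD1) CG dinucleotides and a GC content from 47.6% (HOXD4) to 74.8% (HOXD1), where the medians over 35116 promoters were 11 CG dinucleotides and 58% GC. HOXD9 was not matched. Counted from the RefSeq start, the deposited start is at -20695 bases for HOXD3, -7988 for HOXD10, -3064 for HOXD11 and -328 for HOXD4. The windows of these genes therefore lie inside the deposited genes whose levels are given. HOXD13 had 21 CG dinucleotides, a number reached by 30.2% of all promoters, and HOXD1, HOXD8, HOXD10, HOXD11 and HOXD3, with as many or more, had no mean above 0.0812 TPM. TATAAA, searched on both strands, was present in 1 of the 8 members, HOXD13, where it begins 27 bases before the RefSeq start, and in 10.7% of all promoters. The deposited annotation places the start of HOXD13 170 bases further downstream. TATAAA was also present before EVX2, a homeobox gene beside the cluster with 0 counts, 98 bases before its RefSeq start. A link between these sequences and the levels was not tested.

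HOXD13 (ENSG00000128714, chromosome 2, 176092891 to 176095938, plus strand) encodes the factor at the 5′ end of the cluster. It had 48, 70 and 63 counts in replicates 1, 2 and 3, which are 1.48, 1.96 and 1.90 TPM. All 3 libraries were between 1 and 2 TPM, and replicate 1 was the lowest. The mean was 1.78 ± 0.265 TPM (SD, n = 3). The exact 95% Poisson interval of its 181 counts corresponds to 1.53 to 2.06 TPM. Of all 19708 protein-coding genes 41.2% were below this mean, and their median was 5.88 TPM. Of the 12059 protein-coding genes with at least 1 TPM in every library 3.95% were below it, and their median was 22.2 TPM. None of the 2240 exon bases of HOXD13 lies under an exon of another gene, so no reads were lost there to overlaps.

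HOXD8, a gene of the middle of the cluster, had 2, 8 and 0 counts. These are 0.0525, 0.191 and 0 TPM, with a mean of 0.0812 ± 0.0988 TPM (SD, n = 3), and 8 of its 10 counts came from replicate 2. Without that library the mean was 0.0262 TPM. HOXD10, which acts in the hindlimb and in motor neurons of the lumbar cord, had 4, 0 and 2 counts at 0.102, 0 and 0.0503 TPM, and a mean of 0.0509 ± 0.0513 TPM (SD, n = 3). It was 0.0251 TPM without replicate 1 and 0.0764 TPM without replicate 2. HOXD11, which patterns the forearm and kidney together with HOXA11, had 1, 2 and 0 counts at 0.0327, 0.0595 and 0 TPM, and a mean of 0.0307 ± 0.0298 TPM (SD, n = 3), which was 0.0163 TPM without replicate 2 and 0.0461 TPM without replicate 3. HOXD1, the 3′ gene of the cluster, had 0, 2 and 0 counts, with a mean of 0.0212 ± 0.0367 TPM (SD, n = 3), and no count without replicate 2. Each of these 4 genes was at 0 in at least 1 library, and together they held 21 counts.

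HOXD12, HOXD9, HOXD3 and HOXD4 had 0 counts in all 3 libraries. For a gene at 0, the limit given is the level that 3 counts over the libraries would have had. HOXD12, a posterior gene between HOXD13 and HOXD11, could have been at up to 0.0494 TPM. HOXD9, which acts in the limbs and the lumbar region, could have been at up to 0.0356 TPM. The limits of HOXD3 and HOXD4, anterior genes that act in the neck and hindbrain, were 0.0187 and 0.0454 TPM over all their exon bases. Most of these bases are shared with other genes, and over their own bases alone the limits were 0.0662 TPM for HOXD3 and 0.222 TPM for HOXD4. The intervals and limits cover counting error only. They are too narrow, because the authors' counting took the mates of a read pair separately: in replicate 1, for example, 2585 genes had exactly 2 counts and only 1875 had 1.

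**Figure D1:**
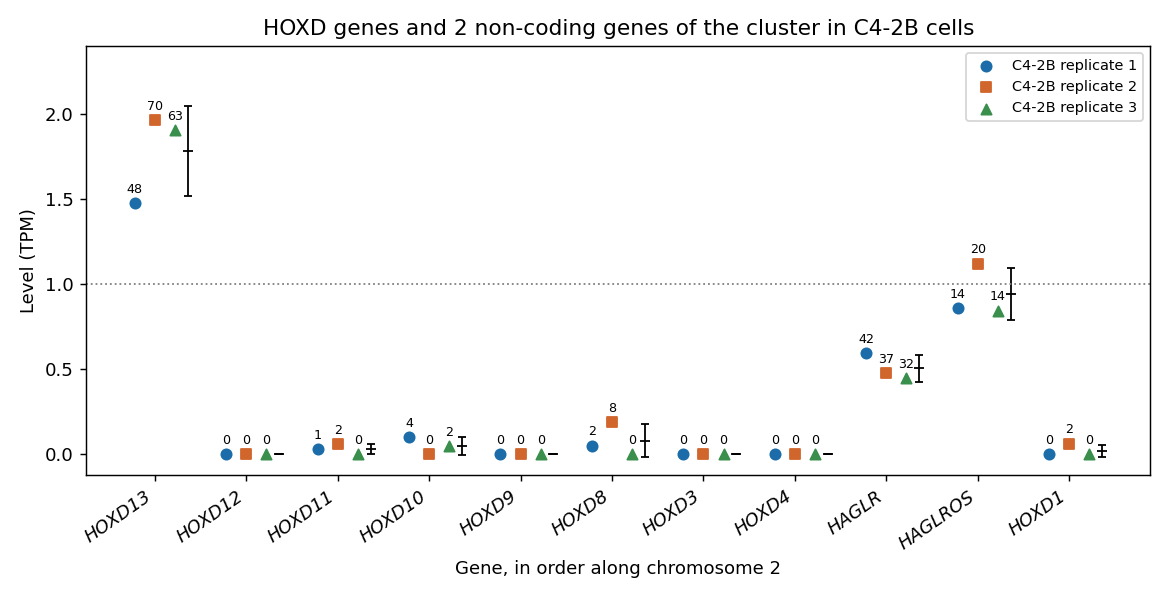
Level in TPM (vertical axis) of the 9 HOXD genes and the 2 non-coding genes HAGLR and HAGLROS in the order of their deposited starts, with 1 point per C4-2B library, the count printed above each point, and the mean and SD as a black bar. The 3 points of HOXD13 lie from 1.48 to 1.96 TPM, above the dotted line at 1 TPM, and those of the other 8 HOXD genes lie from 0 to 0.191 TPM.

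In the order of mean levels, HOXD13 came first and its lowest library, at 1.48 TPM, was above the highest library of any other member, at 0.191 TPM. HOXD8, HOXD10, HOXD11, HOXD1 and the 4 genes at 0 followed. Each neighbouring pair in that order after HOXD13 overlapped in range over the libraries, so the order among these 8 genes is not settled. Per base of exon, HOXD13 had 21.2 times the counts of HOXD8, with an exact 95% counting interval of 11.3 to 45.1. The ratio was 36.3 to HOXD10 (16.3 to 100.09) and 56.8 to HOXD11 (19.1 to 278). HOXD1, with 2 counts, gave a ratio of 79.8 with a wide interval of 21.8 to 664. Over the bases that no other gene shares, an alternative chosen after seeing the data, the ratios were 34.0 to HOXD1 (9.27 to 283), 44.7 to HOXD11 (15.04 to 219) and 30.2 to HOXD10 (13.6 to 83.3). Taking HOXD13 at the lower end of its counting interval and 3 counts over the libraries as the limit of a gene at 0, HOXD13 was at least 31.0-fold higher than HOXD12 and at least 43.1-fold higher than HOXD9, for counting error only and with every count taken as an independent read. HOXD13 held 89.6% of the 202 counts of the cluster.

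Across all genes, 61.2% of protein-coding genes had at least 1 TPM in every library, against 1 of 9 HOXD genes. Further, 12.6% of protein-coding genes had 0 counts in all 3 libraries, against 4 of 9 HOXD genes. These shares are a description, since the members are neighbours on 1 chromosome. Of the 4 HOXD genes at 0, HOXD3 and HOXD4 have most of their exon bases under other genes, where reads were not counted.

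To see whether the libraries differ, each gene's counts were tested against the library sizes with a chi-square test over all genes. Because both mates of a pair can enter the counts, each chi-square entered the test after division by 2. With at least 30 counts required, HOXD13 was the only member that could be tested, and no difference between libraries was detected (chi-square adjusted p = 0.870, n = 3 libraries, TMM scaling from edgeR). The background is 176 of 22229 genes called (0.792%), with 38 called without replicate 1 and 44 without replicate 3. The other 8 members had too few counts for this test. Without the division by 2 the adjusted p of HOXD13 was 0.468, where 3835 genes (17.3%) were called. With DESeq2 size factors or a lower minimum of counts, 0 members passed too, and 0 members had an unadjusted p under 0.05 in any of these settings. The smallest unadjusted p was 0.0948, for HOXD8 once genes with at least 10 counts were admitted. That p came with the division by 2, and HOXD8 was not tested without it. Its 10 counts are also few for a chi-square test, so a difference for HOXD8 was not settled.

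The exons of the 9 genes were then compared with those of every other gene, since the authors' counting left out a read that lay over exons of more than 1 gene. The cluster spans 98017 bases, from 176092891 to 176190907, and all 9 members are on the plus strand. HOXD13, HOXD12, HOXD9 and HOXD8 share no exon base with another gene. HOXD10 and HOXD11 share 452 exon bases on the same strand (176108907 to 176109358), which is 16.8% of HOXD10 and 21.4% of HOXD11. Of the bases of HOXD4, 80.5% lie under ENSG00000278500, a gene model on the same strand that runs from HOXD4 into HOXD3 and is not in GENCODE release 44. The same model covers 62.2% of HOXD3, and the antisense gene HOXD-AS2 covers another 10.7%. Other genes cover 57.4% of HOXD1, with 989 bases under ENSG00000279160 and 145 bases under HAGLR, both on the minus strand.

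These overlaps leave at most 286 bases of HOXD4, 958 of HOXD3 and 841 of HOXD1 in which a read could be counted for the gene. Neither ENSG00000278500 nor HOXD-AS2 had any count. For ENSG00000278500 this says little, since 96.1% of its exon bases are shared and 137 are its own. Reads that touched the shared bases, also those that crossed into them from own bases, appear in no gene of the tables. How many there were was not tested. Levels and limits over own bases may therefore be too low for genes with shared bases. With levels computed over own bases alone, HOXD1 went from 0.0212 to 0.0475 TPM, HOXD10 from 0.0509 to 0.0583 and HOXD11 from 0.0307 to 0.0373. HOXD13 remained the only member with at least 1 TPM in every library, at 1.70 TPM.

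**Figure D2:**
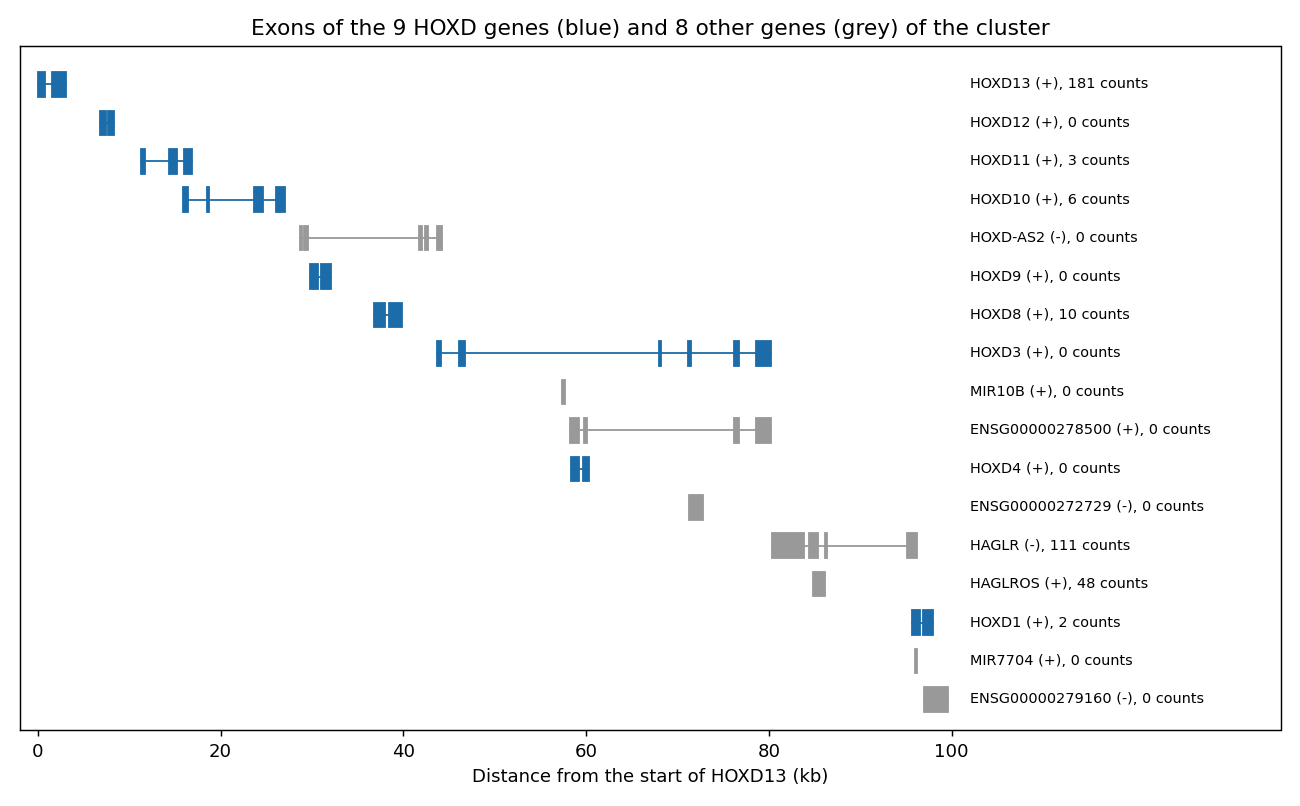
Map of the cluster with distance from the start of HOXD13 in kb (horizontal axis), where boxes are exons merged over all transcripts, lines join the exons of a gene, blue marks the 9 HOXD genes and grey the 8 other genes, and strand and summed counts of the 3 libraries stand at the right. The 9 HOXD genes hold 202 counts, 181 of them in HOXD13 at the left end, and most exon bases of HOXD3 and HOXD4 lie under ENSG00000278500.

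Among the 8 other genes inside the cluster, 2 had counts. HAGLR (also known as HOXD-AS1, ENSG00000224189, minus strand, 176173195 to 176188958), a long non-coding RNA gene between HOXD3 and HOXD1, had 42, 37 and 32 counts. These are 0.597, 0.479 and 0.447 TPM, with a mean of 0.508 ± 0.0793 TPM (SD, n = 3). HAGLROS (ENSG00000226363, plus strand, 176177717 to 176179008), a non-coding gene antisense to HAGLR, had 14, 20 and 14 counts and a mean of 0.943 ± 0.155 TPM (SD, n = 3). Every library of both genes was above every library of the 8 HOXD genes other than HOXD13. Over their deposited lengths both were also below every library of HOXD13, but for HAGLROS this order depended on the length used. Of the exon bases of HAGLROS, 47.9% lie under HAGLR exons, where reads of either strand were left out of the counts. Over its own bases, an alternative chosen after seeing the data, HAGLROS was at 1.58, 2.05 and 1.55 TPM, with a mean of 1.72 ± 0.283 TPM (SD, n = 3). HOXD13 was at 1.41, 1.87 and 1.81 TPM on that scale, so the ranges of the 2 genes overlapped. HAGLR was at 0.563 ± 0.0880 TPM (SD, n = 3) over its own bases. MIR10B, the precursor of a microRNA between HOXD8 and HOXD4, had 0 counts, but its exon has only 110 bases, and small RNAs are not captured by this kind of library.

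Within 500 kb of either end of the cluster, 16 further genes are listed, and 3 of them had at least 1 TPM in every library. LNPK (175923892 to 176002839), which encodes a protein that shapes the endoplasmic reticulum, ends 90.1 kb before HOXD13 and was at 28.5, 30.4 and 30.5 TPM. MTX2 (176269395 to 176338025), which encodes a protein of mitochondrial import, starts 78.5 kb after HOXD1 and was at 40.4, 39.3 and 35.2 TPM. Every library of both genes was above every library of HOXD13. EVX2, a homeobox gene 8.98 kb from HOXD13 and on the other strand, had 0 counts. The processed pseudogene ENSG00000218175, 10.0 kb after HOXD1, was at 6.26 ± 1.69 TPM (SD, n = 3) from 97 counts, and reads shared with its parent gene make that value uncertain. Of the 16 flanking genes 12 had 0 counts, while LNPK and MTX2 had 12291 and 2975 counts. EVX2 was the only protein-coding gene among these 12. Of all 58302 genes, 37024 had at least 1 count over the libraries.

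**Figure D3:**
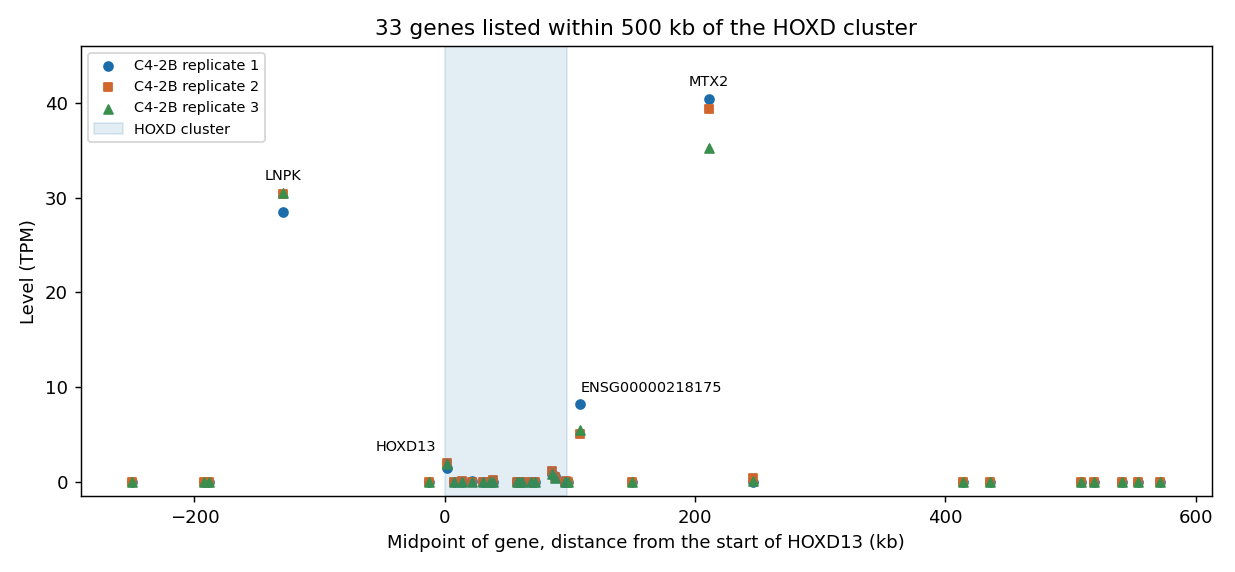
Level in TPM (vertical axis) of the 33 genes listed within 500 kb of the HOXD cluster against the distance of their midpoint from the start of HOXD13 in kb, with 1 point per C4-2B library and the cluster shaded. LNPK and MTX2 on either side lie between 28.5 and 40.4 TPM, and over deposited gene lengths no gene inside the shaded cluster is above 1.96 TPM.

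The other HOX clusters were measured in the same libraries. The summed level of the 9 HOXD genes was 1.67, 2.28 and 1.95 TPM in replicates 1, 2 and 3. The sums were from 45.2 to 53.6 TPM for HOXA, from 73.5 to 74.2 TPM for HOXC and from 263 to 272 TPM for HOXB, so that HOXD was lowest in 3 of 3 libraries. On the log2 scale the HOXA sum was above the HOXD sum by 4.64 ± 0.35, the HOXC sum by 5.24 ± 0.22 and the HOXB sum by 7.10 ± 0.24 (SD, n = 3 each). An exact two-sided sign-flip permutation test over the 3 libraries gave p = 0.25 for each of these 3 differences, 0.25 is the smallest p that 3 libraries allow, and so none could pass 0.05. At least 1 TPM in every library was reached by 5 of 11 HOXA, 5 of 10 HOXB, 7 of 9 HOXC and 1 of 9 HOXD genes. None of the 30 HOXA, HOXB and HOXC genes had 0 counts in all 3 libraries, against 4 of the 9 HOXD genes. Of these 4, HOXD3 and HOXD4 have 73.0% and 80.5% of their exon bases under other genes. How many reads were lost there was not tested.

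The HOXD gene had the lowest mean of its paralogue group in 8 of 9 groups. In 6 of these, groups 3, 4, 9, 10, 12 and 13, its highest library was below the lowest library of every paralogue. Group 4 is the least certain, since few bases of HOXD4 could take a count. Over these bases the limit of its mean was 0.222 TPM, and the lowest library of HOXB4 was at 0.270 TPM over its deposited length. That limit holds for the mean over the 3 libraries, and the limit of a single library is higher. Whether the libraries of HOXD4 and HOXB4 are separate was therefore not settled. In groups 8 and 11 the ranges overlapped with those of a paralogue, and in group 1 the mean of HOXB1, at 0.0169 TPM, was below that of HOXD1 with overlapping ranges. In group 12, HOXC12, the only paralogue of HOXD12, was at 9.42 ± 1.04 TPM (SD, n = 3). Group 13, the most posterior, was the only one of these 9 groups with all of its genes above 1 TPM in every library. HOXD13 was the lowest of them at 1.78 TPM, HOXA13 was at 7.04 ± 0.680 TPM, HOXC13 at 14.4 ± 1.08 TPM, and HOXB13, a prostate lineage factor, at 241 ± 5.70 TPM (SD, n = 3 each). HOXD13 thus made up 0.675% of the summed level of group 13. In the HOXD and HOXB clusters alike, the gene numbered 13 took most of the summed level, 90.6% in HOXD and 89.8% in HOXB.

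**Figure D4:**
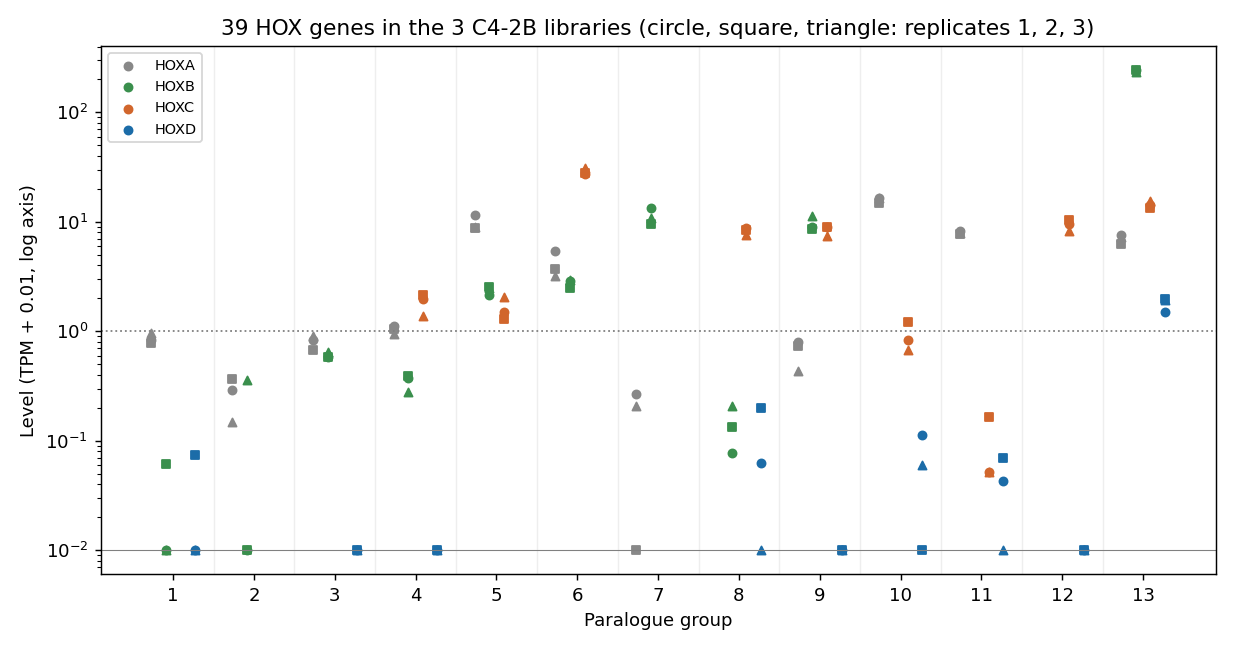
Level as TPM + 0.01 on a log axis (vertical) of 39 HOX genes by paralogue group (horizontal axis) in the 3 C4-2B libraries, coloured by cluster, where circles, squares and triangles are replicates 1, 2 and 3, the lower line is 0 TPM and the dotted line 1 TPM. The HOXD points lie from 0 to 0.191 TPM in groups 1 to 12, and in group 13 all 4 genes are above the dotted line with HOXD13 the lowest.

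Genes that work with or on HOX genes were read from the same libraries. Of the 9 TALE cofactors, homeodomain proteins that bind DNA together with HOX proteins, 6 had at least 1 TPM in every library, from PBX2 at 29.7 TPM down to MEIS2 at 0.0449 TPM. All 13 Polycomb genes were above 1 TPM, with CBX7 lowest at 12.1 TPM and the methyltransferase subunits EZH2 and SUZ12 at 60.8 and 60.6 TPM. All 8 genes of the MLL and H3K27 demethylase list, which oppose Polycomb at HOX clusters, were above 1 TPM too, from KMT2B at 26.4 TPM to KDM6A at 184 TPM. Of 14 genes of retinoic acid signalling, which opens the 3′ end of HOX clusters in embryos, 8 were above 1 TPM, with RXRG at 0 counts and RXRA highest at 49.7 TPM. Of 7 further partners of posterior HOX genes, 2 were above 1 TPM, GMNN was highest at 60.9 TPM and EVX2 was at 0 counts. Of these 51 genes, 44 had enough counts for the test between libraries and 0 were called with the divided chi-square, where 0.792% of all genes were. With the undivided one 8 of the 44 (18.2%) were called, close to the 17.3% of all genes.

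The label of the cells as prostate adenocarcinoma was checked against marker lists. All 9 prostate luminal markers were above 1 TPM, with KLK3 highest at 1988 TPM and a summed level from 4770.7 to 4809.5 TPM over the libraries. The 3 basal markers summed to 0.787 to 0.998 TPM, and TP63 had 0 counts. The 6 stromal markers summed to 26.96 to 28.98 TPM, with VIM at 20.2 TPM and COL1A1 at 7.09 TPM above 1 TPM, while COL1A2 and DCN had 0 counts. The 3 immune markers summed to at most 0.720 TPM, and the 3 endothelial markers to at most 3.29 TPM with VWF highest at 2.91 TPM. The 4 neuroendocrine markers summed to at most 3.18 TPM. Of these, CHGA at 1.38 TPM and SYP at 1.305 TPM were above 1 TPM in every library. The part of other cells in the HOXD13 level was not tested.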

How the data were processed

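Total RNA from C4-2B cells was depleted of ribosomal RNA, made into directional libraries and sequenced as read pairs. Per the submitters' processing notes, reads were aligned to GRCh38 (hg38) with STAR 2.7.0f. The deposited tables hold raw counts for each gene, made by the authors with featureCounts (Subread 1.6.3) and Ensembl release 90. Per the file headers, no strand was set and pairs were not counted as fragments. Reads over several genes, or aligned to several places, were not counted under these settings. Gene length is the deposited length, the union of a gene's exons, and was checked against the deposited exon coordinates.

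Here, counts were divided by gene length and scaled to a sum of 1000000 per library over all genes (TPM). The RNA gene RN7SL2 made up 19.6% ± 0.726 of this sum (SD, n = 3), and it lowers every other TPM accordingly. CPM is the count scaled to the same sum without length. Symbols were matched by Ensembl identifier for 57532 of 58302 genes, and gene types came from GENCODE 44. Promoters came from RefSeq, 250 bases before each start. Libraries were compared by a chi-square goodness of fit of each gene's counts to library sizes scaled by TMM (edgeR 4.0.16), with 2 degrees of freedom, at least 30 counts, the chi-square divided by 2, Benjamini-Hochberg adjustment over all genes tested and a threshold of 0.05. DESeq2 1.42.0 size factors were an alternative. The test was tested on simulated counts. It compares libraries, not conditions, and its p-values measure departure from counting error under the division by 2. The sign-flip p reflects only that the 3 libraries had differences of the same sign. SDs measure the spread between these 3 samples, which may be technical, as the labels do not say that they were separate cultures. Groups and replicate numbers came from sample titles. Named genes were the 9 members, genes that overlap them or lie inside the cluster, flanking genes within 500 kb at 1 TPM or more, HOX paralogues and the listed partner and marker genes, of which only some are named. EVX2 and MIR10B are named at 0 counts. The members and lists were chosen with earlier results of these data known. Python 3.11.15 and R 4.3.3 were used.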

Additional observations from a re-analysis of the deposited data

How the results depend on the processing

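No paired analysis was possible because files of 1 group were analysed here, although the labelled groups share replicate numbers. The number of HOXD genes at the TPM level in every library was 1 under all alternatives run except a level of 2 TPM, where it was 0, since HOXD13 lies under 2 TPM in all 3 libraries. HOXD13 was at 2.58 TPM without the 10 most abundant and the mitochondrial genes in the denominator and at 1.28 CPM, as both rescale the values, and from 1.69 to 1.93 TPM with 1 replicate left out. Of the other 8 members, 4 moved by less than their SD and 4 stayed at 0 under these alternatives. Neither shows stability: leaving out 1 of 3 libraries cannot move a mean by its SD, and no alternative can move a 0. Without replicate 2, HOXD8 fell from 0.0812 to 0.0262 TPM and HOXD1 from 0.0212 TPM to 0. HAGLROS went from 0.943 to 1.72 TPM over its own bases, where the shorter length raises the value. The number of genes that differ between libraries was 3835 with the chi-square not divided by 2, as the division itself sets it. It ranged from 38 to 223 with 1 replicate left out, with 2 libraries in each test, and from 118 to 180 under other scalings and minimum counts. No HOXD gene was called under any of these settings, and HOXD13 was the only one tested without the division. The HOXA, HOXB and HOXC sums stayed above the HOXD sum under each alternative run, by 4.46 to 5.05, 6.98 to 7.66 and 5.13 to 5.56 (log2). Depth limits the 8 members other than HOXD13: with 0 to 10 counts over 3 libraries their levels and order were not resolved.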
